A study of Mus musculus with 16 samples.

Results

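The genes described here are 10 transcriptional regulators: the C/EBP factors Cebpa, Cebpb and Cebpd, the immediate-early factors Fos, Jun, Junb, Egr1, Atf3 and Maff, and the immediate-early co-regulator Btg2. They were chosen by name, with earlier results of these data known. Each of their probes was found by matching the transcript accession in the scanner files to a gene symbol. The 10 genes, measured by 14 probes, are a small part of the 25197 features tested, of which 15177 carried a gene symbol. All 14 probes were well above background on all 16 arrays.

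The study asked how the response of mouse muscle to a glucocorticoid depends on KLF15, a Krüppel-like zinc finger factor that glucocorticoids induce. Quadriceps was taken 8 h after 1 intraperitoneal injection, either of 2 mg/kg of the synthetic glucocorticoid dexamethasone or of vehicle, from wild-type (WT) mice and from KLF15 knockout (KO) mice. The 4 groups, WT vehicle, WT dexamethasone, KO vehicle and KO dexamethasone, held 4 animals each, with 1 single-colour Agilent 4x44K array per animal. The labels do not state strain, sex, age or how the knockout allele was made. The p-values measure the spread among the arrays of these animals only. The arrays lay on 8 slides, which the main test did not take into account. Differences among animals and among slides therefore enter that spread together.

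Expression is given as a log2 level relative to the 75th percentile of each array, so 0 is the brightness of that percentile and 1 unit is a doubling. Levels of different genes come from different probes and were not set against each other. The array percentile itself lay between 553.9 and 1169 intensity units, and between 66.33% and 80.58% of probes were well above background. Klf15 was lower in KO than in WT quadriceps by 3.97 log2 units with vehicle (SE 0.26, adjusted p = 2.521e-06, limma), and the place of its probe relative to the deleted part is not given. Fkbp5, a standard glucocorticoid-induced gene, rose by 2.98 in WT and 2.75 in KO. Among other glucocorticoid reference genes, Cdkn1a and Foxo1 also rose in both genotypes, whereas Tsc22d3, Per1 and Klf9 passed in neither. All 12 skeletal muscle markers were well above background on all 16 arrays. The summed level (log2) of 10 neutrophil markers was 7.91 in WT dexamethasone animal 3 and 6.61 in KO dexamethasone animal 1, against -1.85 to 0.41 in the other 14. The same animals were also highest in the summed level of 4 erythroid markers, at 8.11 and 7.66, against 5.90 to 7.22 in the other 14. In whole muscle, fewer cells of a type and less RNA per cell cannot be told apart.

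C/EBP proteins are basic leucine zipper factors that pair with each other and switch on acute-phase, fat-storage and catabolic genes. C/EBP-beta and C/EBP-delta are well known to be induced by glucocorticoids, and in muscle they have been tied to the atrophy programme, whereas C/EBP-alpha is better known from liver and fat. Immediate-early genes are switched on within minutes of a stimulus without new protein synthesis, usually through serum response factor, ternary complex factors and CREB bound near the start site, and their transcripts are short-lived. FOS and JUN proteins pair to form AP-1, while small MAF proteins such as MAFF lack a transactivation domain and act through their partners.

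The promoters of Cebpb, Jun, Maff and Btg2, which rose after dexamethasone in at least 1 genotype, with that of Fos as one that did not pass the test, are shown to let the reader see which known control elements lie next to the start site. Each stretch is the 200 bases directly upstream of an annotated start, taken from RefSeq on build GRCm38.p6 and written 5′ to 3′ on the gene's strand. The Maff stretches are chr15:79347320-79347519 and chr15:79346421-79346620 on the plus strand, upstream of separate start sites. Btg2 is at chr1:134079156-134079355 on the minus strand, Cebpb at chr2:167688715-167688914 on the plus strand, Jun at chr4:95052223-95052422 on the minus strand and Fos at chr12:85473690-85473889 on the plus strand. Capitals mark the cyclic AMP response element TGACGTCA, the C/EBP element TTGCNNAA, the AP-1 variant TGACATCA and the TATA box. Capitals also mark the shorter cyclic AMP form TGACG on either strand.
Maff with a cyclic AMP element: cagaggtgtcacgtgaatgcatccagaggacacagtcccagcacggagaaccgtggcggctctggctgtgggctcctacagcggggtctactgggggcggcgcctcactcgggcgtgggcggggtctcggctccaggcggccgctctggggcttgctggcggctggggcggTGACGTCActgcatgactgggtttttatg
Maff with a C/EBP element: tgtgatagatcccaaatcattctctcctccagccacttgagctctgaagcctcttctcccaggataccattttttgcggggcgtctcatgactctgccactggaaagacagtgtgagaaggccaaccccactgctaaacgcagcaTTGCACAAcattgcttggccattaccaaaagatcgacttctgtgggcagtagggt
Btg2: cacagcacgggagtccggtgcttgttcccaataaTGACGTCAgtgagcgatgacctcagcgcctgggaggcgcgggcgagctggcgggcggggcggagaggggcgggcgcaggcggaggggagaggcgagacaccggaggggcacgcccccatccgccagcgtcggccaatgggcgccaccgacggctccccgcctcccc
Cebpb: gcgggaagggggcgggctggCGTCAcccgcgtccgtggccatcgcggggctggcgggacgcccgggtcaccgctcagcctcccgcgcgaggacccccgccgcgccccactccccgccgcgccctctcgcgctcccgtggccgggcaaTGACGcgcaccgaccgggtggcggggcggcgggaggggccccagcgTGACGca
Jun: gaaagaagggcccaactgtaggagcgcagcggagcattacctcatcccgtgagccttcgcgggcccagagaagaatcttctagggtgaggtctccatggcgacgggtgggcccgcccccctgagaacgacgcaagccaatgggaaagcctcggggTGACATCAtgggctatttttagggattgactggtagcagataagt
Fos: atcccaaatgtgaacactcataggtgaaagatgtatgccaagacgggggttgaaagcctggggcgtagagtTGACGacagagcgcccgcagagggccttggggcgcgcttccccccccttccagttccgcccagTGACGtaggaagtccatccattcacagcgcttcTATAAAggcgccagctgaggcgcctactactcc

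Motifs were searched on both strands of the 250 bases upstream of each start, for 8 of the 10 genes (not Cebpd and Egr1). The full cyclic AMP element was present in Maff and Btg2, and 1.546% of 32851 windows of the same length over all genes held it. The shorter form, which lies inside the full one, was present in 6 of the 8 genes, against 17.77% of all windows. These were Btg2, Cebpb and Maff, which rose after dexamethasone, and Atf3, Fos and Junb, which were not called. Jun, which rose, lacked it. A gene was counted if any of its windows held the element. The C/EBP element was present in Maff alone, at one start site, against 9.564% of windows. The variant AP-1 element, added after the Jun sequence was seen, was in Jun and Maff and in 2.928% of windows. The TATA box TATAAA was in Cebpa and Fos and in 12.37% of windows. The GC box GGGCGG was in 6 of the 8 genes and in 32.74% of windows, and the Krüppel-like factor element CACCC in 6 and in 52.01%. None of the 8 genes held the consensus AP-1 element TGANTCA, the glucocorticoid response core ACANNNTGT, the STAT element TTCNNNGAA or the CArG box bound by serum response factor. This holds for the 250 bases only, and elements farther upstream would have been missed. Some genes have several windows, so these shares describe letters and not binding.

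Dexamethasone raised Cebpb, Cebpd, Jun, Maff and Btg2 in WT quadriceps, and Cebpd, Jun, Maff and Btg2 in KO quadriceps, at an adjusted p under 0.05 in limma's moderated test over all features. Thus 5 of 10 genes were called in WT, all of them higher. Of all features, 10.7% were called in WT in either direction and 5.05% were called higher. In KO, 4 of 10 were called, all higher, against 10.2% of all features in either direction and 5.69% higher. Averaged over both genotypes, the same comparison called Cebpb, Cebpd, Jun, Maff and Btg2, against 17.2% of all features in either direction and 9.04% higher. The median log2 change of the 10 genes was 0.68 in WT and 0.42 in KO, beside -0.08 and 0.08 over all features. Because the 10 genes were chosen with earlier results of these data known, these counts and medians are a description and not a test. Cebpa, Fos, Junb, Egr1 and Atf3 were not called in either genotype. Among all called features, 47.2% were higher in WT and 55.6% in KO, and scaling to the array median made these shares 82% and 45.4% and the median change of all features 0.16 and 0.02.

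**Figure D1:**
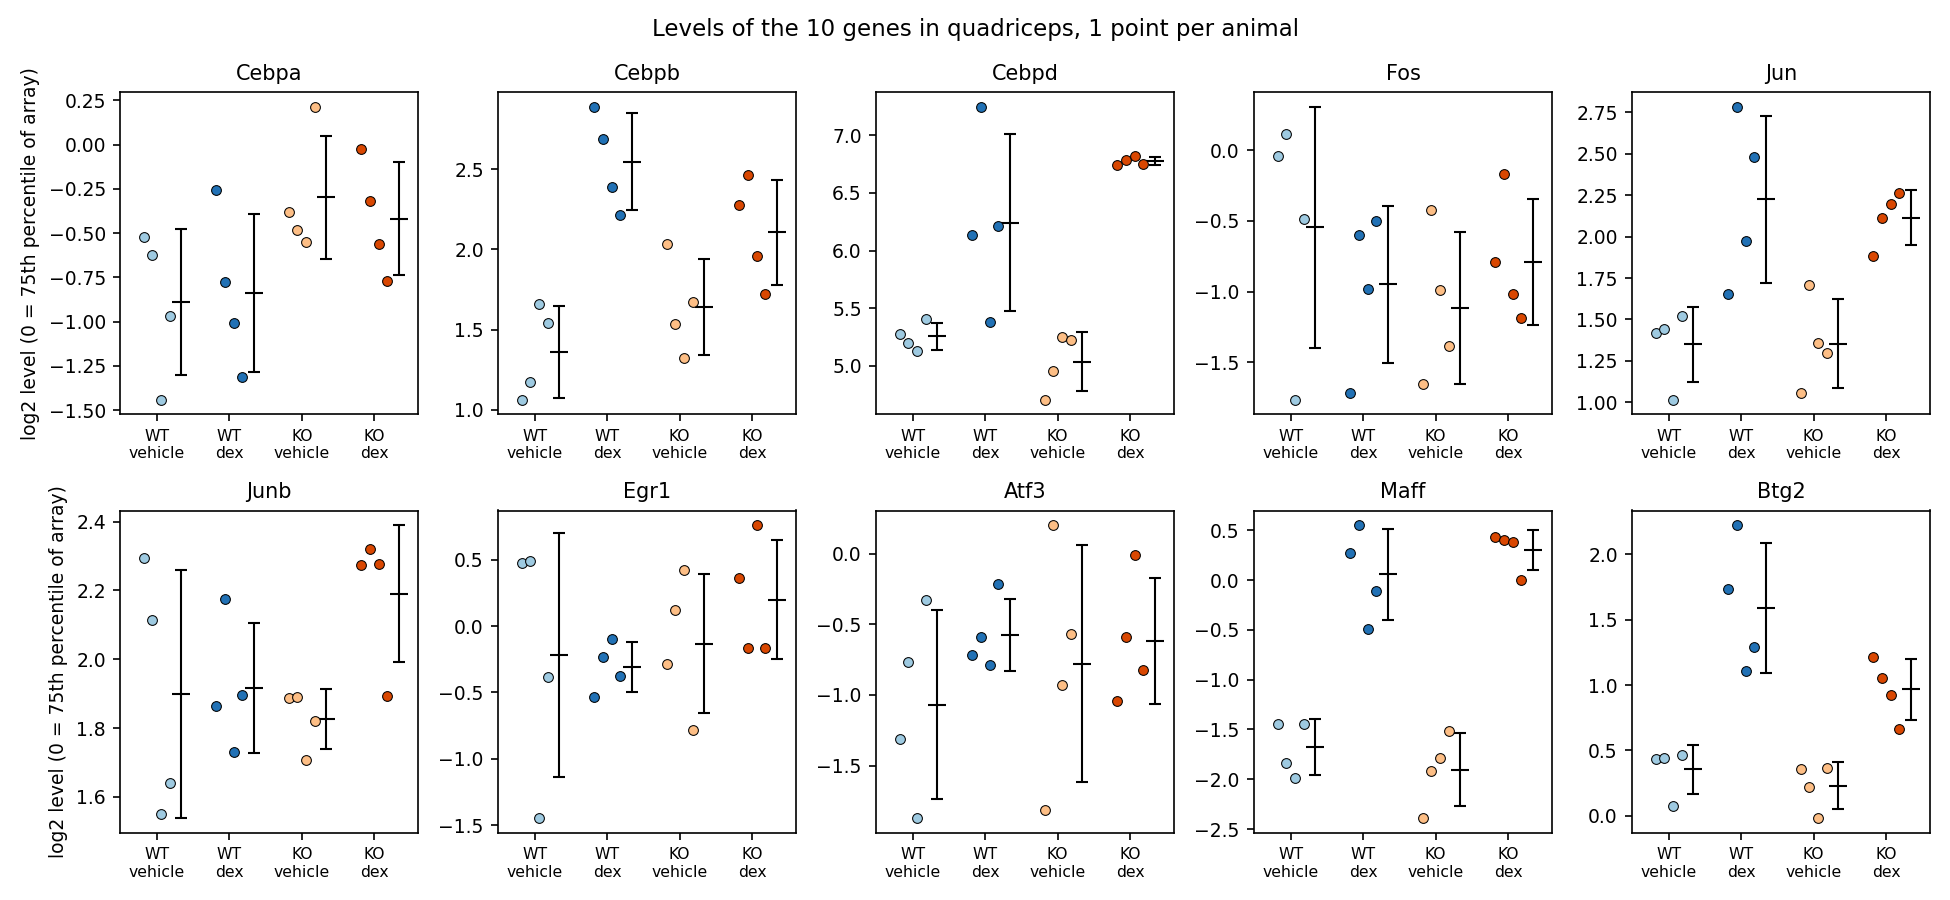
Log2 level of each of the 10 genes in each animal (y axis, relative to the array's 75th percentile; every panel has its own range), by genotype and treatment (x axis, dex for dexamethasone). Points are animals 1 to 4 from left to right and bars give the mean ± SD of 4. Jun, Maff and Btg2 separate dexamethasone from vehicle within both genotypes, whereas Fos, Egr1 and Atf3 scatter widely within groups.

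Cebpb encodes C/EBP-beta, a factor induced by glucocorticoids and cyclic AMP. Its level in the 4 WT vehicle animals was 1.06, 1.17, 1.66 and 1.54, and in the 4 WT dexamethasone animals it was 2.89, 2.69, 2.39 and 2.21. Every treated WT animal was above every WT control. In KO it was 2.03, 1.53, 1.32 and 1.67 with vehicle and 2.28, 2.46, 1.96 and 1.72 with dexamethasone, and these KO groups overlapped. Cebpb rose 2.27-fold in WT (log2 change 1.19, SE 0.21, 95% interval 0.73 to 1.64, adjusted p = 0.002787). In KO the log2 difference was 0.47 (95% interval 0.01 to 0.92) and its adjusted p of 0.2203 missed the threshold. Both within-slide comparisons kept the sign. The single slide that held both WT groups gave 1.15, and the 3 slides that held both KO groups gave 0.60, 0.40 and 0.43. The KO call was gained with slide as a fixed block (adjusted p = 0.02675) and as a random block (0.01192), within a range of 0.01192 to 0.8829 over all alternatives. The WT call was lost with normexp background correction (adjusted p = 0.1087, the highest of a range from 0.0001052).

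Cebpd encodes C/EBP-delta, an acute-phase factor that responds to glucocorticoids and cytokines. The WT vehicle animals had levels of 5.28, 5.20, 5.13 and 5.41, and the WT dexamethasone animals had 6.13, 7.25, 5.38 and 6.21. WT dexamethasone animal 3, at 5.38, lay inside the vehicle range, and animal 2 stood highest. In KO the levels were 4.71, 4.96, 5.25 and 5.22 with vehicle and 6.74, 6.78, 6.82 and 6.75 with dexamethasone. The KO groups were far apart, and the treated KO animals lay within an SD of 0.03, the smallest spread of any group for this gene. Cebpd rose 1.98-fold in WT (log2 change 0.99, SE 0.28, 95% interval 0.39 to 1.59, adjusted p = 0.0367) and 3.34-fold in KO (log2 change 1.74, SE 0.28, 95% interval 1.14 to 2.34, adjusted p = 0.00119). Within slides the difference was 1.84 in WT and 1.52, 1.50 and 2.07 in KO.

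The WT call for Cebpd depended on which arrays were included. It was lost on leaving out WT vehicle animal 1, 2, 3 or 4 or WT dexamethasone animal 1 or 4, with adjusted p-values of 0.06059 to 0.09227 and log2 changes of 0.95 to 1.04. Among the other scalings, corrections and filters it was lost with quantile normalization (0.06506), without the filter on dim probes (0.05047) and with normexp correction (0.2902), in a range of 0.003966 to 0.2902 over all alternatives. Without WT dexamethasone animal 3, the array with the highest neutrophil markers and the only one of the 16 scanned on another day, the WT change was 1.27 (adjusted p = 0.004219). Without WT dexamethasone animal 2 it was 0.65 (adjusted p = 0.04295). The KO call was kept under every alternative run, with a change of 1.62 to 1.81.

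Cebpa encodes C/EBP-alpha, a differentiation factor of fat and liver. Its brighter probe read -0.52, -0.62, -1.44 and -0.97 in WT vehicle, and -0.25, -0.78, -1.01 and -1.31 in WT dexamethasone animals. In KO the levels were -0.38, -0.48, -0.55 and 0.22 with vehicle and -0.03, -0.32, -0.56 and -0.77 with dexamethasone. Treated and control animals overlapped in both genotypes. The log2 difference after dexamethasone was 0.05 in WT (95% interval -0.52 to 0.62, adjusted p = 0.9333) and -0.12 in KO (-0.69 to 0.45, adjusted p = 0.8769). A second, dimmer probe gave -0.41 in WT and 0.15 in KO and also missed the threshold.

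Jun encodes the c-JUN subunit of AP-1. Its level was 1.42, 1.45, 1.02 and 1.52 in WT vehicle animals and 1.66, 2.79, 1.98 and 2.48 in WT dexamethasone animals. In KO it was 1.05, 1.71, 1.36 and 1.30 with vehicle and 1.88, 2.11, 2.20 and 2.26 with dexamethasone. In each genotype the lowest treated animal was above the highest control. Jun rose 1.83-fold in WT (log2 change 0.88, SE 0.22, adjusted p = 0.02116) and 1.69-fold in KO (log2 change 0.76, SE 0.22, adjusted p = 0.04304). The within-slide differences were 1.26 in WT and 0.59, 0.90 and 1.06 in KO. Both calls lay near the threshold. The WT call was lost without WT vehicle animal 3 (adjusted p = 0.05876) or WT dexamethasone animal 4 (0.05922) and with normexp correction (0.4449), in a range of 0.002981 to 0.4449. The KO call was lost in 9 of 16 fits that left out 1 array, at most at 0.1295 without KO vehicle animal 1, and in 5 of 11 other alternatives, in a range of 0.002849 to 0.4557.

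Fos encodes c-FOS, the partner of c-JUN and the best-known immediate-early gene. Its level was -0.04, 0.11, -1.77 and -0.48 in WT vehicle animals and -1.72, -0.60, -0.98 and -0.50 in WT dexamethasone animals. In KO it was -1.66, -0.42, -0.99 and -1.39 with vehicle and -0.79, -0.17, -1.01 and -1.18 with dexamethasone. The groups overlapped throughout, and the SD of the WT vehicle group was 0.85. The log2 difference was -0.41 in WT (95% interval -1.30 to 0.49, adjusted p = 0.5862) and 0.33 in KO (-0.57 to 1.22, adjusted p = 0.7673). The intervals reach down to -1.30 in WT and up to 1.22 in KO, so these data do not exclude changes of that size in Fos.

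Junb encodes JUNB, an AP-1 subunit that can oppose c-JUN. With its brighter probe the WT levels were 2.29, 2.11, 1.55 and 1.64 with vehicle and 1.86, 2.18, 1.73 and 1.90 with dexamethasone. In KO they were 1.89, 1.89, 1.71 and 1.82 with vehicle and 2.27, 2.32, 2.28 and 1.89 with dexamethasone. The WT groups overlapped. In KO the lowest treated animal, animal 4, was level with the highest control to 2 decimals while the other treated animals stood clear. The log2 difference was 0.02 in WT (95% interval -0.33 to 0.37) and 0.36 in KO (0.01 to 0.72), with adjusted p-values of 0.9655 and 0.216. The second probe gave -0.02 and 0.23, neither past the threshold.

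Egr1 encodes a zinc finger factor switched on through serum response factor. Its level was 0.48, 0.49, -1.45 and -0.39 in WT vehicle animals and -0.53, -0.24, -0.10 and -0.38 in WT dexamethasone animals. In KO it was -0.28, 0.12, 0.42 and -0.78 with vehicle and 0.36, -0.16, 0.76 and -0.16 with dexamethasone. The control groups spanned the treated ones almost completely. The log2 difference was -0.09 in WT (95% interval -0.94 to 0.75, adjusted p = 0.918) and 0.33 in KO (-0.51 to 1.17, adjusted p = 0.7417).

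Atf3 encodes a stress-induced bZIP factor of the ATF/CREB family. It read -1.31, -0.77, -1.87 and -0.33 in WT vehicle animals and -0.72, -0.59, -0.79 and -0.21 in WT dexamethasone animals. In KO it read -1.82, 0.20, -0.93 and -0.57 with vehicle and -1.04, -0.59, -0.01 and -0.82 with dexamethasone. Vehicle groups ranged more widely than treated groups, with an SD of 0.67 against 0.26 in WT and 0.84 against 0.44 in KO. The log2 difference was 0.49 in WT (95% interval -0.37 to 1.35, adjusted p = 0.4833) and 0.16 in KO (-0.70 to 1.02, adjusted p = 0.8945). The intervals of Fos, Egr1 and Atf3 were the widest of the 10 genes.

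Maff encodes a small MAF protein that binds DNA with CNC and other bZIP partners. Its level was -1.44, -1.84, -1.99 and -1.44 in WT vehicle animals and 0.27, 0.55, -0.49 and -0.10 in WT dexamethasone animals. In KO it was -2.39, -1.92, -1.79 and -1.51 with vehicle and 0.43, 0.40, 0.39 and 0.00 with dexamethasone. All 8 treated animals were above all 8 controls. Maff rose 3.33-fold in WT (log2 change 1.73, SE 0.23, 95% interval 1.23 to 2.23, adjusted p = 0.0003937) and 4.62-fold in KO (log2 change 2.21, SE 0.23, 95% interval 1.71 to 2.71, adjusted p = 4.817e-05). These were the largest changes among the 10 genes. The exact permutation test of 8 treated against 8 control animals (two-sided) gave p = 0.0001554, the smallest it can give. The within-slide differences were 1.99 in WT and 1.94, 1.79 and 2.79 in KO. Both calls held under every alternative run, with a change of 1.27 to 1.97 in WT (adjusted p at most 0.03986) and of 1.86 to 2.34 in KO (at most 0.004348).

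**Figure D2:**
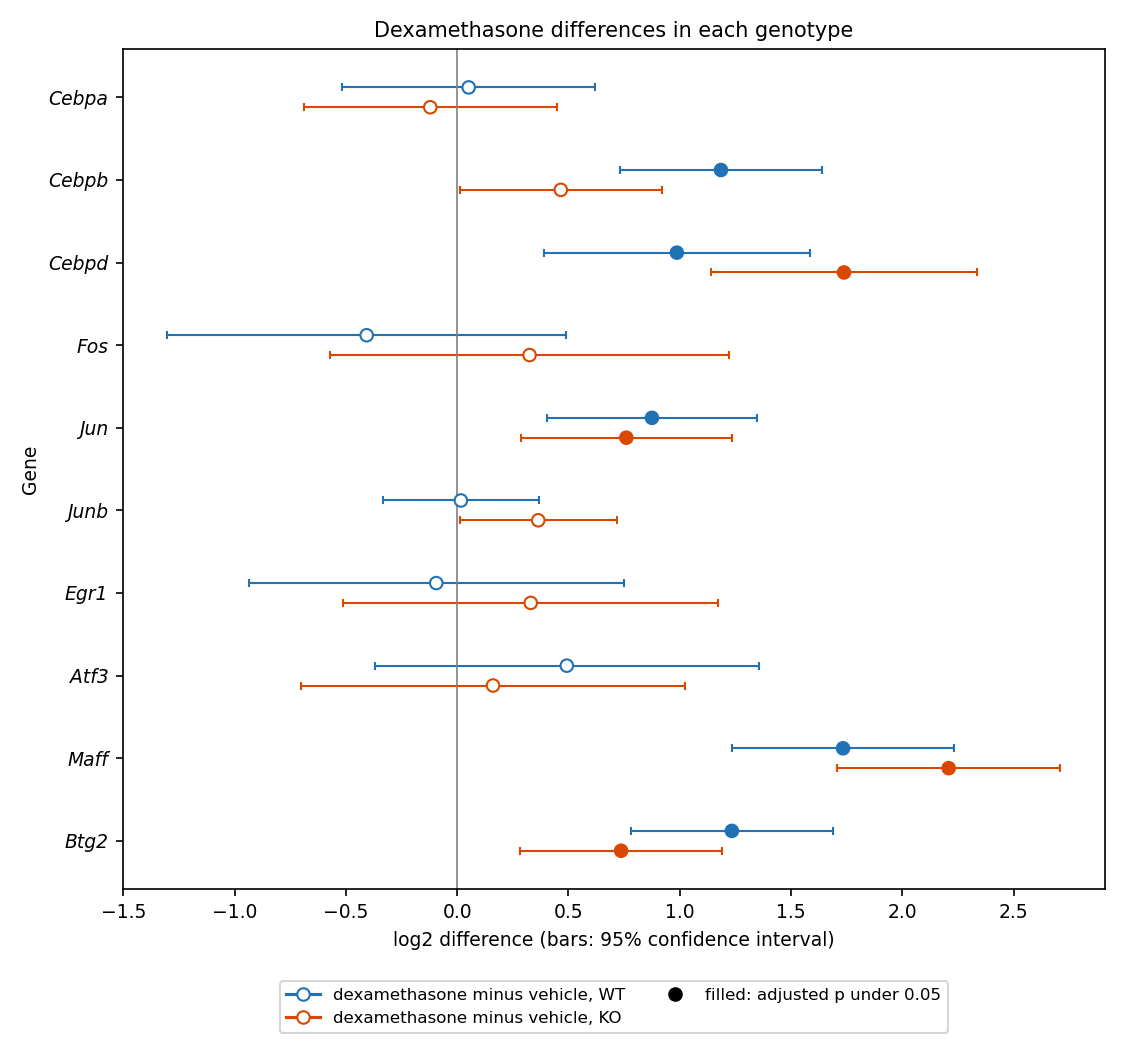
Log2 difference between dexamethasone and vehicle for each gene in WT and KO (x axis), with 95% confidence intervals from limma, 4 animals against 4. Filled points have an adjusted p under 0.05 over all features; Maff lies farthest from 0 in both genotypes, at 1.73 and 2.21, and the intervals of Fos, Egr1, Atf3 and Cebpa cross 0 in both.

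Btg2 encodes an antiproliferative protein that binds the CCR4-NOT deadenylase and co-regulates transcription. The brightest of its 3 probes, A_52_P31543, read 0.43, 0.44, 0.08 and 0.47 in WT vehicle animals and 1.73, 2.22, 1.11 and 1.29 in WT dexamethasone animals. In KO it read 0.35, 0.22, -0.02 and 0.37 with vehicle and 1.22, 1.06, 0.93 and 0.67 with dexamethasone. All 8 treated animals were above all 8 controls (exact permutation test, two-sided, p = 0.0001554, the smallest it can give). Btg2 rose 2.35-fold in WT (log2 change 1.23, SE 0.21, adjusted p = 0.002064) and 1.67-fold in KO (log2 change 0.74, SE 0.21, adjusted p = 0.04021) on this probe. The within-slide differences were 1.76 in WT and 0.85, 0.68 and 0.70 in KO.

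The other Btg2 probes disagreed with it in size. Probe A_52_P925197 gave 0.42 in WT and 0.60 in KO, and probe A_52_P35217 gave 0.34 and 0.63, with adjusted p-values of 0.1905 to 0.5413, so neither passed in either genotype. All 3 probes read higher after dexamethasone in both genotypes, but with the mean of the 3 the change was 0.66 in WT (adjusted p = 0.1048) and 0.65 in KO (0.1245), and both calls were lost. The WT call on the brightest probe was kept when any 1 array was left out and lost with normexp correction (0.1405, the highest of a range from 0.00032). The KO call was lost in 10 of 16 fits that left out 1 array, at most at 0.1123 without KO vehicle animal 3, while the log2 change in those fits stayed at 0.65 to 0.78. It was also lost with median scaling (change 0.68, adjusted p = 0.07995), with normexp correction (0.70, 0.3626) and without the filter on dim probes (0.74, 0.05705), in a range of 0.003631 to 0.3626 over all alternatives. Which transcripts each probe detects was not tested.

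**Figure D3:**
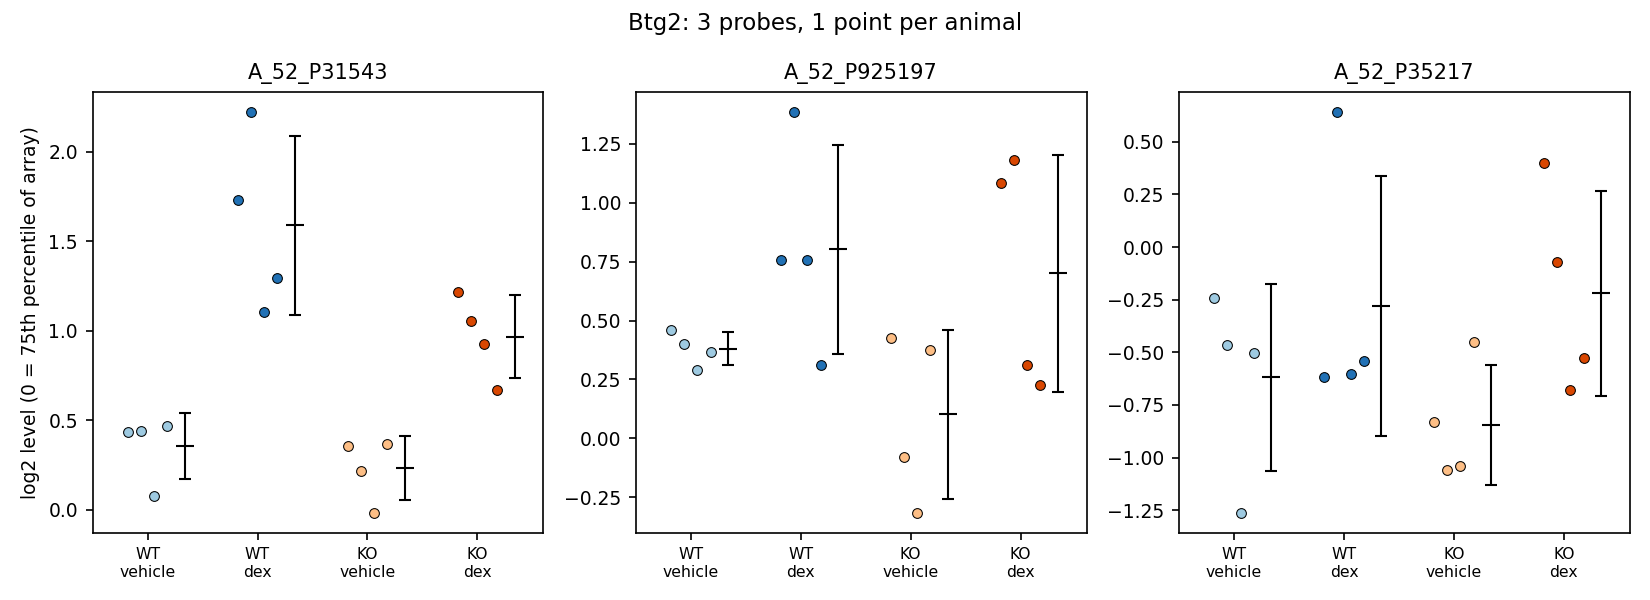
Log2 level of Btg2 in each animal on each of its 3 probes (y axis, relative to the array's 75th percentile; every panel has its own range), by genotype and treatment; points are animals and bars the mean ± SD of 4. Only the leftmost probe, with changes of 1.23 and 0.74, separates treated from control animals in both genotypes.

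Averaged over the genotypes, the log2 changes were 1.97 for Maff (adjusted p = 2.42e-06), 1.36 for Cebpd (0.00026), 0.99 for Btg2 (0.0003713), 0.83 for Cebpb (0.001401) and 0.82 for Jun (0.002061). The exact permutation test of 8 against 8 animals gave p = 0.0003108 for Cebpd and Jun and 0.000777 for Cebpb. The remaining genes lay between -0.04 for Fos and 0.33 for Atf3. Without WT dexamethasone animal 3 and KO dexamethasone animal 1, the arrays with high neutrophil markers, the WT change was 1.24 for Cebpb, 1.27 for Cebpd, 0.96 for Jun, 1.92 for Maff and 1.40 for Btg2, and each of these 5 passed the threshold. In KO without them, Cebpd at 1.75 and Maff at 2.17 passed, whereas Jun at 0.84 (adjusted p = 0.05514) and Btg2 at 0.65 (0.07069) did not.

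No gene of the 10 passed the test between KO and WT animals under vehicle, where 0.262% of all features did, or under dexamethasone, where 1.84% did. At an unadjusted p under 0.05, 1 of the 10 passed in each of these limma comparisons, beside 1791 of 25197 features under vehicle and 3481 of 25197 under dexamethasone. Under vehicle it was Cebpa, with a KO minus WT difference of 0.59 (95% interval 0.02 to 1.16, adjusted p = 0.68). Under dexamethasone it was Btg2, with -0.62 (-1.07 to -0.17, adjusted p = 0.1834). For Cebpa the dimmer probe gave 0.25 under vehicle and 0.81 under dexamethasone, and for Btg2 the other probes gave -0.10 and 0.06 under dexamethasone. The largest remaining differences under dexamethasone were 0.53 for Cebpd (-0.07 to 1.13), 0.51 for Egr1 (-0.33 to 1.35) and -0.44 for Cebpb (-0.89 to 0.01). Leaving out WT dexamethasone animal 2 brought the Cebpd difference to 0.87 and past the threshold (adjusted p = 0.03597, in a range of 0.03597 to 0.863). Of the features called under dexamethasone 55.5% were higher in KO, a share that fell to 11.7% with median scaling and to 39.8% with quantile normalization.

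Whether the response itself differed between genotypes was tested by the interaction, the KO change minus the WT change. It passed for 0 of the 10 genes and for 0% of all features in limma, with 1 of the 10 and 2893 of 25197 features at an unadjusted p under 0.05. That gene was Cebpb, whose KO response was smaller by 0.72 log2 units (interaction -0.72, 95% interval -1.36 to -0.08, adjusted p = 0.392, range 0.07723 to 1.0 over the alternatives). For Cebpd the interaction was 0.75 (-0.10 to 1.60) and for Btg2 -0.50 (-1.14 to 0.14). For Jun it was -0.12 (-0.79 to 0.55) and for Maff 0.47 (-0.23 to 1.18). These intervals leave room for differences in response of more than 1 log2 unit for Cebpb, Cebpd, Btg2 and Maff, so the genotypes are not shown to respond alike.

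**Figure D4:**
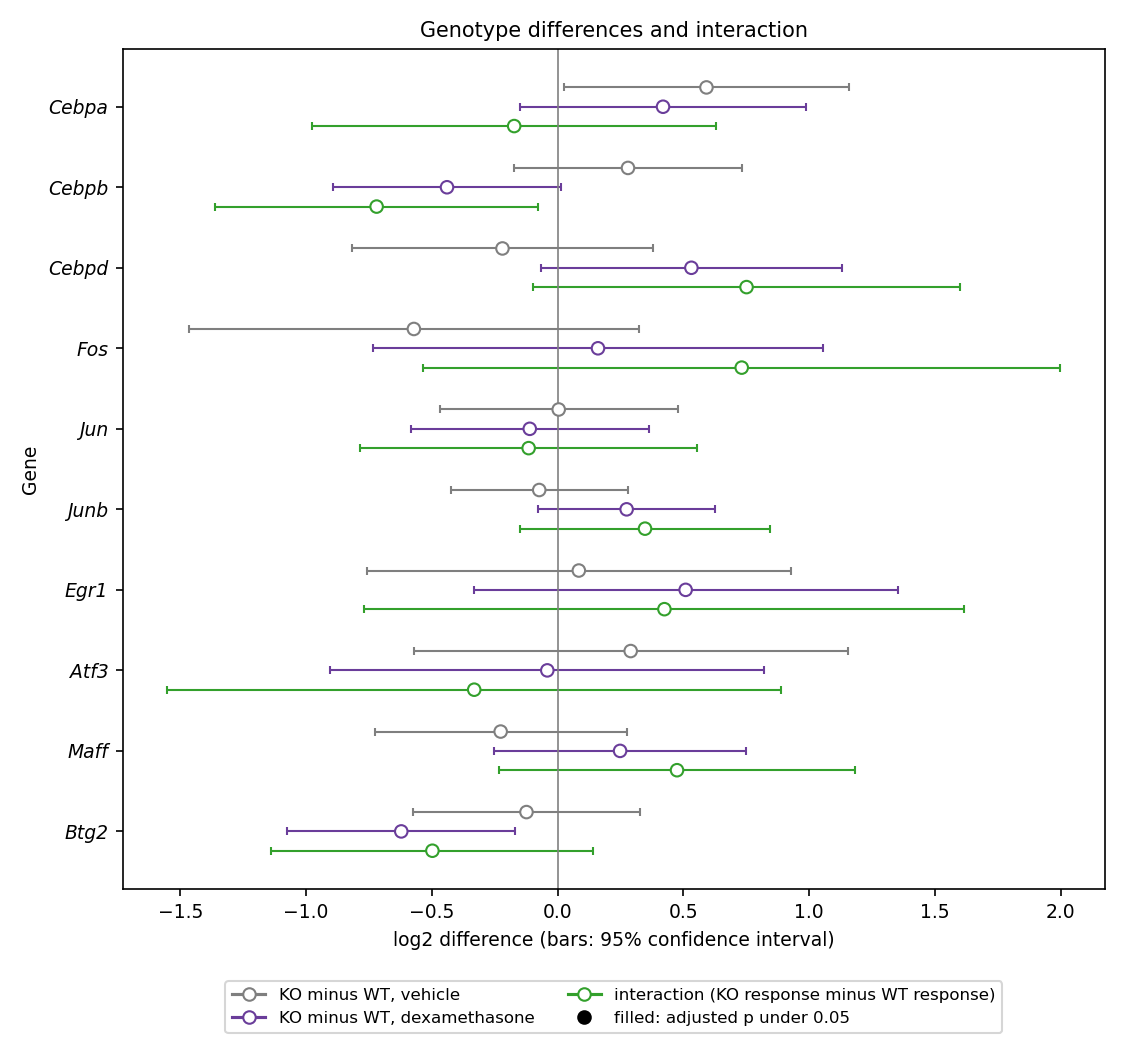
Log2 difference of KO minus WT under vehicle and under dexamethasone, and the interaction, for each gene (x axis), with 95% confidence intervals from limma. No point is filled, because no difference had an adjusted p under 0.05; the Cebpa difference under vehicle at 0.59, the Btg2 difference under dexamethasone at -0.62 and the Cebpb interaction at -0.72 have intervals that do not cross 0.

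Animals of a group differed together in several of these genes. WT vehicle animal 3 was the lowest of its group in 9 of the 10 genes, all except Cebpb, and KO dexamethasone animal 4 was the lowest in 6. WT dexamethasone animal 2 was the highest of its group in 5 and the lowest in 0. After subtraction of the group means, 39 of 45 pairs of genes correlated positively over the 16 animals. None of these counts was made over all features, and the part of whole-array shifts in them was not tested. The pair Cebpd and Maff had r = 0.79 (permutation p = 2e-05, adjusted over 45 pairs 0.0009) and rho = 0.77 (permutation p = 0.00068, adjusted 0.0153). Without the 2 animals farthest from the median of Cebpd, r was 0.73, and with slide means also removed, over the 13 arrays on shared slides, r was 0.70.

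Maff and Btg2 had r = 0.70 (permutation p = 0.00215, adjusted 0.04837) and rho = 0.70 (permutation p = 0.00363, adjusted 0.05445). Without the 2 animals farthest from the median r was 0.79, and with slide means removed it was 0.47. Fos and Jun had r = 0.69 (permutation p = 0.00332, adjusted 0.0498) and rho = 0.66 (permutation p = 0.00672, adjusted 0.06048), with r = 0.51 without the 2 farthest animals. Cebpa and Btg2 passed by rank, with rho = 0.79 (permutation p = 0.00029, adjusted 0.01305) and r = 0.63 (permutation p = 0.00879, adjusted 0.05386). Only these pairs passed by r or rho. All levels share the scaling of their array, and removing group means uses up degrees of freedom that the permutations do not count.

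**Figure D5:**
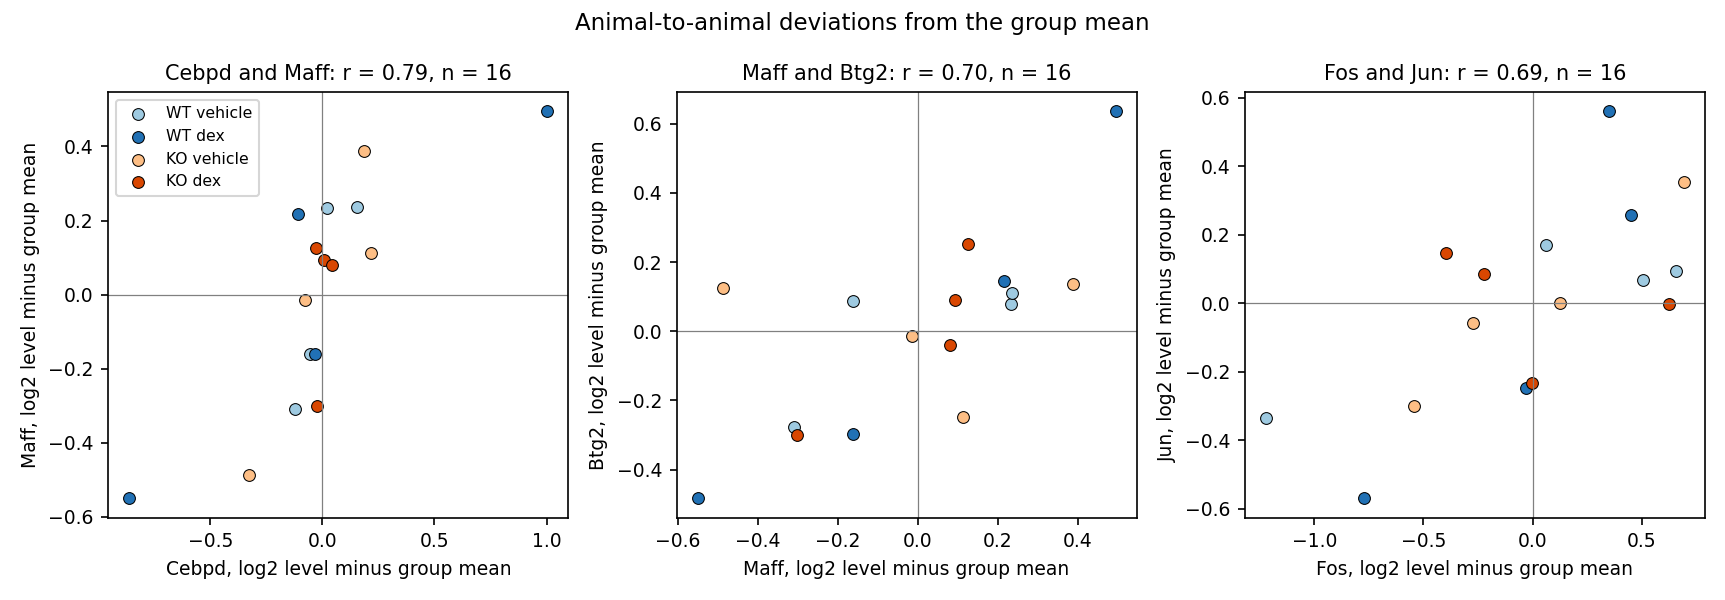
Deviation of each animal from its group mean (log2 level) for Cebpd and Maff, Maff and Btg2, and Fos and Jun; each point is 1 of 16 animals, coloured by group. The pairs rise together, with r of 0.79, 0.70 and 0.69, and WT dexamethasone animals 2 and 3 are the extreme points of the first pair.

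Over all 16 arrays, group differences included, the named features whose levels ran most like Maff were Mt2 (r = 0.98), Itpr2 (0.98) and Mt1 (0.97), of which Mt1 and Mt2 encode metallothioneins. Cebpd ran most like Pld1 (0.96), Apex2 (0.95) and Trp53inp1 (0.94), and Cebpb most like Tbk1 (0.95), Xrn2 (0.94) and Slc3a2 (0.94). Jun ran most like Sertad2 (0.98), Fbxo30 (0.96) and Osbpl11 (0.93), and Btg2 most like Grhl1 (0.93), Mocs1 (0.92) and Sh3pxd2b (0.92). These are descriptions, since the 5 genes and their likest features were picked out of the whole array and share the group differences.

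Relatives of the 10 genes moved in both directions. The counts in these lists stand beside 5.05% of all features called higher and 5.64% called lower in WT, and 5.69% higher and 4.55% lower in KO, and beside median changes of -0.08 and 0.08 over all features. The 7 other C/EBP-named and related factors were Cebpg, Cebpz, Ddit3, Dbp, Tef, Hlf and Nfil3. Of these, 1 rose and 2 fell in WT and 1 rose and 3 fell in KO, with median changes of -0.08 and -0.31. Cebpg (0.34 in WT and 0.14 in KO) and Cebpz (-0.06 and -0.02) were not called. Nfil3, a bZIP repressor, rose by 1.51 in WT (SE 0.18, adjusted p = 0.0001862) and 1.35 in KO (0.0003435). The clock-controlled PAR bZIP factors Dbp and Hlf fell by 1.24 and 0.49 in WT and by 1.09 and 0.44 in KO. Ddit3, which encodes the C/EBP-binding protein CHOP, fell by 0.54 in KO and had a change of -0.23 in WT (adjusted p = 0.3174).

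Of 20 other FOS, JUN, ATF and MAF family genes, 4 rose and 3 fell in each genotype, with median changes of 0.04 in WT and 0.00 in KO. Fosl2, an AP-1 subunit, rose by 0.78 in WT and 0.61 in KO, and Nfe2l2, a CNC partner of small MAF proteins, rose by 0.68 and 0.51. Mafk, the close relative of Maff, rose by 0.87 in WT (adjusted p = 0.0004829) and had a change of 0.33 in KO (adjusted p = 0.1132). Maf, a large MAF factor, fell by 0.66 and 0.69.

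Of 26 other immediate-early genes tested, 4 rose and 1 fell in WT and 5 rose in KO, with medians of 0.25 and 0.36. Rhob, a small GTPase gene, rose by 1.23 in WT and 1.40 in KO. The mRNA-decay gene Zfp36l1 rose by 0.60 and 0.66, and Csrnp1 rose by 1.19 in KO with a change of 0.71 in WT (adjusted p = 0.1138). Klf10 rose by 1.54 in WT and had a change of -0.59 in KO (adjusted p = 0.4243). Under dexamethasone it was lower in KO than in WT by 3.21 (SE 0.36, adjusted p = 0.0003084). With vehicle its KO minus WT difference was -1.08 (adjusted p = 0.4689, limma). The lowest WT vehicle level of Klf10, 1.02, was above the highest KO vehicle level, 0.48. The Klf10 interaction of -2.12 did not pass in limma (adjusted p = 0.1931). Without the arrays with high neutrophil markers, the WT change of Klf10 was 1.40 and its call was lost (adjusted p = 0.05736, limma). Of 6 genes of the BTG and TOB family and its CCR4-NOT partners (Btg1, Btg3, Tob1 and Tob2 with Cnot7 and Cnot8), 1 rose and 1 fell in WT (Btg3 0.68, Tob1 -0.70), and 1 rose in KO (Btg1 0.54). Tob2, called higher only in the average of both genotypes, had 0.37 in WT and 0.31 in KO.

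Of 17 genes that control immediate-early transcription through serum response factor, ternary complex factors, CREB and MAP kinases, 3 fell in WT and 2 fell in KO and the others were not called, with medians of -0.21 and 0.08. The ternary complex factor gene Elk3 fell by 0.50 in WT and 0.90 in KO. Mrtfa, a serum response factor coactivator, fell by 1.02 in WT with a change of -0.65 in KO (adjusted p = 0.07467), and Mapk3 fell by 0.53 in KO with 0.04 in WT. Dusp2, a MAP kinase phosphatase gene, was called higher in the average of both genotypes, with 0.30 and 0.38. Other phosphatase genes of the list went the other way. Dusp4 (-0.73, adjusted p = 0.01689, limma) and Dusp10 (-0.79, adjusted p = 0.0158, limma) were called lower in the average. Dusp4 also fell in WT, by 0.94, and Dusp1 and Dusp6 were not called.

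Among 18 known C/EBP target genes, 9 rose and 1 fell in WT and 8 rose and 1 fell in KO, with medians of 1.01 and 0.81, beside the same 5.05% and 5.69% of all features called higher. Lcn2, an acute-phase gene also carried by neutrophils, rose by 6.35 in WT (SE 0.37, adjusted p = 5.503e-07) and 6.42 in KO (4.749e-07), and without the 2 arrays with high neutrophil markers by 6.24 and 6.25. Orm3, whose near-identical copies can share its probe, rose by 5.77 and 5.60, and Orm1, Orm2 and Orm3 were counted as separate genes. The muscle atrophy ubiquitin ligase gene Trim63 rose by 1.61 and 1.67, and Mstn, which encodes myostatin, rose by 0.93 and 1.39. Fbxo32, another muscle atrophy ubiquitin ligase gene, had changes of 1.09 and 1.08 that missed the threshold (adjusted p = 0.07205 and 0.07818, limma). It was called higher in the average of both genotypes (adjusted p = 0.008342, limma). Ccl2 was the gene that fell, with changes of -2.60 in WT and -1.97 in KO. Several genes of this list are also known as direct targets of the glucocorticoid receptor. The list was drawn up with earlier results of these data known, so its counts are a description and not a test.

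Markers of other cells and of handling moved with treatment in part. The summed level of 11 macrophage markers was 3.58 to 4.16 in WT vehicle and 2.90 to 3.32 in WT dexamethasone animals, and 6 of the 11 fell, while in KO it was 3.37 to 3.84 and 2.96 to 3.91 and 2 fell. The summed level of 8 heat shock and handling genes was 7.44 to 7.57 and 7.69 to 7.91 in WT, and 1 of 8 rose. In KO it was 7.28 to 7.51 with vehicle and 7.57 to 7.70 with dexamethasone, and 2 rose. A sum mostly follows its brightest probes. The median over the 8 genes of their deviations from their own means overlapped between treatments. It was -0.11 to 0.28 with vehicle and 0.02 to 0.34 with dexamethasone in WT, and -0.38 to -0.01 and -0.08 to 0.21 in KO. Of 9 endothelial markers 1 fell in WT and 4 fell in KO, and of 8 adipocyte markers 1 rose in each genotype. The part of these cells and of handling in the levels of the 10 genes was not tested.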

How the data were processed

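RNA was amplified as cDNA from tissue lysates and labelled with Cy3, per the labels' protocols, and 1 Agilent array was hybridised per animal. Feature Extraction 10.7.3.1 produced the scanner intensity values, per the file headers. The authors also deposited log2 values of the same arrays, whose scaling is not stated and which served as an alternative. Here, processed intensities were log2-transformed, the 75th percentile of each array was subtracted, control and outlier spots were left out and spots of a probe were averaged. Probes well above background on at least 4 arrays were kept (32406 of 41174), and each gene was represented by its brightest probe, named through RefSeq accessions (24844 probes with a symbol). All 4 groups entered 1 limma fit (limma 3.58.1, R 4.3.3, lmFit and eBayes) with Benjamini-Hochberg adjustment over 25197 features. Single values were also compared by exact permutation test, whose smallest p with 4 against 4 animals is 0.02857. Correlations used 100000 permutations (scipy 1.17.1). Replicates of a group correlated at 0.9334 to 0.9897. The number of arrays limits the precision. Alternatives were median scaling, quantile normalization, normexp correction (on median spot signals, since the files list no mean signal), the deposited values, other filters, the mean of a gene's probes, slide as a block, the replicate number as a block, leaving out arrays, and within-slide differences, of which normexp on median signals, the pair of arrays with high neutrophil markers and the within-slide differences were chosen after seeing the data. The 10 genes and all gene lists were chosen with earlier results of these data known. Named genes of the other lists are the up to 4 with the smallest adjusted p among those called, with a few others given beside them.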

Additional observations from a re-analysis of the deposited data

Results flagged for a closer look

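In 4 of 56 sets of 4 animals (each probe of the 10 genes in each group), the gap between 1 animal and its nearest neighbour was a larger share of the group's range than Dixon's 95% critical value for 4 values, and chance alone gives this in about 1 set in 20. Btg2 on probe A_52_P31543 was 0.07716 in WT vehicle animal 3, against 0.4332 to 0.4659 in the other animals of the group. Btg2 on probe A_52_P35217 was 0.642 in WT dexamethasone animal 2, against -0.6195 to -0.5406. Junb on probe A_51_P159201 was 1.894 in KO dexamethasone animal 4, against 2.272 to 2.32. Maff was 0.004525 in KO dexamethasone animal 4, against 0.3865 to 0.4305. The Maff call in KO was kept without that animal, with a log2 change of 2.31 (adjusted p = 0.0001431, limma). Btg2 in WT was kept without WT vehicle animal 3, with a change of 1.14 (adjusted p = 0.007588, limma).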

How the results depend on the processing

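Of 660 log2 changes of the 10 genes under settings other than leaving out 1 array, 638 kept their side of the threshold, 20 lost the call and 2 gained it. Of 960 with 1 array left out, 932 kept their side, 27 lost the call and 1 gained it. No called change turned its sign in either set. Changes of sign among differences that were not called were not counted. Of the 10 genes, 5 were called in WT, 1 with normexp correction and 3 to 5 with 1 array left out. In KO 4 were called, 2 with median scaling, 2 with normexp, 2 without the filter on dim probes, 2 without the arrays with high neutrophil markers and 2 to 4 with 1 array left out. In the average of genotypes 3 were called with normexp in place of 5, and between genotypes under dexamethasone 0 to 1 with 1 array left out. Over all features, normexp gave 193 calls in WT, 414 in KO, 963 in the average, 17 between genotypes under vehicle and 49 under dexamethasone. The corresponding main counts were 2695, 2579, 4338, 66 and 463. Median scaling gave 1436 in KO and 38 and 205 between genotypes. Slide as a fixed block gave 767 in WT and 19 and 45 between genotypes. Slide as a random block (consensus correlation 0.5742) gave 4053 in WT, 5080 in KO, 447 and 951 between genotypes and 310 for the interaction. Under dexamethasone 238 features differed between genotypes without the arrays with high neutrophil markers. The interaction count was 1 with the deposited values and 6 with the filter at all 16 arrays. With 1 array left out, the feature counts were 1644 to 2694 in WT, 1828 to 2708 in KO, 3568 to 4254 in the average, 44 to 70 and 280 to 482 between genotypes, and 0 to 1 for the interaction.

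The replicate numbers do not pair the animals: 5 of 24 same-numbered pairs correlated above 0.1, in a range of -0.6633 to 0.6625. With the replicate number as a block, 2046 features were called in WT, 2046 in KO and 289 between genotypes under dexamethasone, and Cebpd in WT had an adjusted p of 0.06145 (limma). Of the other named genes' changes, 1605 of 1716 kept their side of the threshold under the settings that kept all arrays or left out the pair with high neutrophil markers. The correlation of Maff and Btg2 was 0.4665 with slide means removed. The cause of these differences was not tested. With 4 animals per group, probes of wide spread such as those of Fos, Egr1 and Atf3 limit what can be detected.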
